A study of Mus musculus with 6 samples.

Results

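The 32 genes of mitosis and the G2/M phase were followed in mouse marrow cultures grown on a soft or a stiff substrate. They were selected by name, for their place in cell division, with earlier results of these data known. They were matched by symbol to 32 of the 24062 gene symbols in each count table. All 32 passed the filter on low counts, beside 13155 genes tested in all. The cultures were bone marrow from femurs and tibias of C57BL/6J mice, given GM-CSF at 20 ng/ml and fed on days 3, 6 and 10. GM-CSF is the cytokine that drives marrow precursors towards dendritic cells and macrophages. The low tension group (3 libraries) grew at 2 kPa, near physiological stiffness, and the high tension group (3 libraries) at 50 kPa, closer to that of fibrotic and inflamed tissue. Both groups shared strain, cytokine and feeding, and no altered allele or other agent is named for either. The labels state no sort, culture age at harvest or animal for a library, so each value is an average over whatever cells the well held. The comparison asks how the stiffness of the substrate alone alters transcription in such a culture.

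A cell that has copied its DNA enters mitosis when cyclin A and cyclin B activate the kinase Cdk1. Polo-like and Aurora kinases then build the spindle, the spindle checkpoint holds chromosomes until each kinetochore is attached, and the anaphase-promoting complex releases them by destroying cyclin B and securin. The genes of this machinery are transcribed together late in the cycle. In resting cells the DREAM complex, built on the MuvB core, keeps them silent, and B-MYB with MuvB and then FOXM1 switch them on. In marrow cultures with GM-CSF the dividing cells are mainly early myeloid precursors, while mature neutrophils and most mature dendritic cells have left the cycle.

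Libraries held 33.8 M to 36.3 M counts, and the smallest count of any of the 32 genes in any library was 106. Levels are CPM, counts per M of the library size scaled by its TMM factor. Log2 fold changes are 50 kPa over 2 kPa with their standard error. A gene was called when edgeR's quasi-likelihood test gave a Benjamini-Hochberg adjusted p under 0.05 across the whole table. Whether a replicate is a culture or an animal of its own is not in the labels. The p-values therefore cover the spread among these 6 samples, and that spread may be technical. Replicates 1 and 2 at 50 kPa were more alike than any other pair of one group (a chi-square per degree of freedom of 6.71, where the other pairs had 126 to 233), and results without either or with both summed are given where they differ. Replicate 1 at 2 kPa gave a chi-square of 122 to 136 with the 50 kPa libraries, below its 156 and 213 with the other libraries of its own group. Dendritic cell markers were present, and the 11 listed summed to 6342 to 12460 CPM at 2 kPa and 15160 to 23150 CPM at 50 kPa. Cd74 and H2-Aa, of MHC class II, were the most abundant and weigh heavily in these sums. Their means were 4611 and 1922 CPM at 2 kPa and 8998 and 4625 CPM at 50 kPa. Of the 11 (median -0.36), 6 had a negative log2 fold change, Zbtb46 (-0.36) among them, and 5 a positive one, Itgax (1.58) among them. By edgeR 0 of these 11 were called, with 5 lower and 4 higher at an unadjusted p under 0.05, and DESeq2 called 5 lower and 4 higher. Among all genes 14.8% were lower at that unadjusted threshold and 9.51% were called lower by DESeq2. Of the 13155 genes 1716 were higher at that threshold, and DESeq2 called 1121 higher.

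Transcripts of the mitotic genes were mostly lower on the stiff substrate, but only Mki67 passed the test. Of the 32 genes 31 had a negative log2 fold change, beside 53.2% of all genes tested. Their median log2 fold change was -0.57, a level 1.48-fold lower, beside -0.03 over all genes. The set was chosen with earlier results known, so these figures describe it and are not a test. Mki67, which encodes the Ki-67 protein that coats mitotic chromosomes and marks cycling cells, fell 1.62-fold. With 1 gene lower and 0 higher, the share called is close to the 3.45% called among all genes, 1.98% lower and 1.47% higher. At an unadjusted p under 0.05 edgeR gave 9 of the 32 genes, all lower, beside 14.8% of all genes that were lower at that threshold. DESeq2 called 5 of the 32, all lower: Mki67, Plk1, Cenpe, Ube2c and Aurka, beside 9.51% of all genes called lower by it. With a term for replicate number edgeR called 10 of the 32, all lower, beside 3.97% of all genes. The labels do not say what a number marks, so the fit without that term is the one reported. In a mixed culture fewer dividing cells and less of these transcripts in each dividing cell cannot be told apart.

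**Figure D1:**
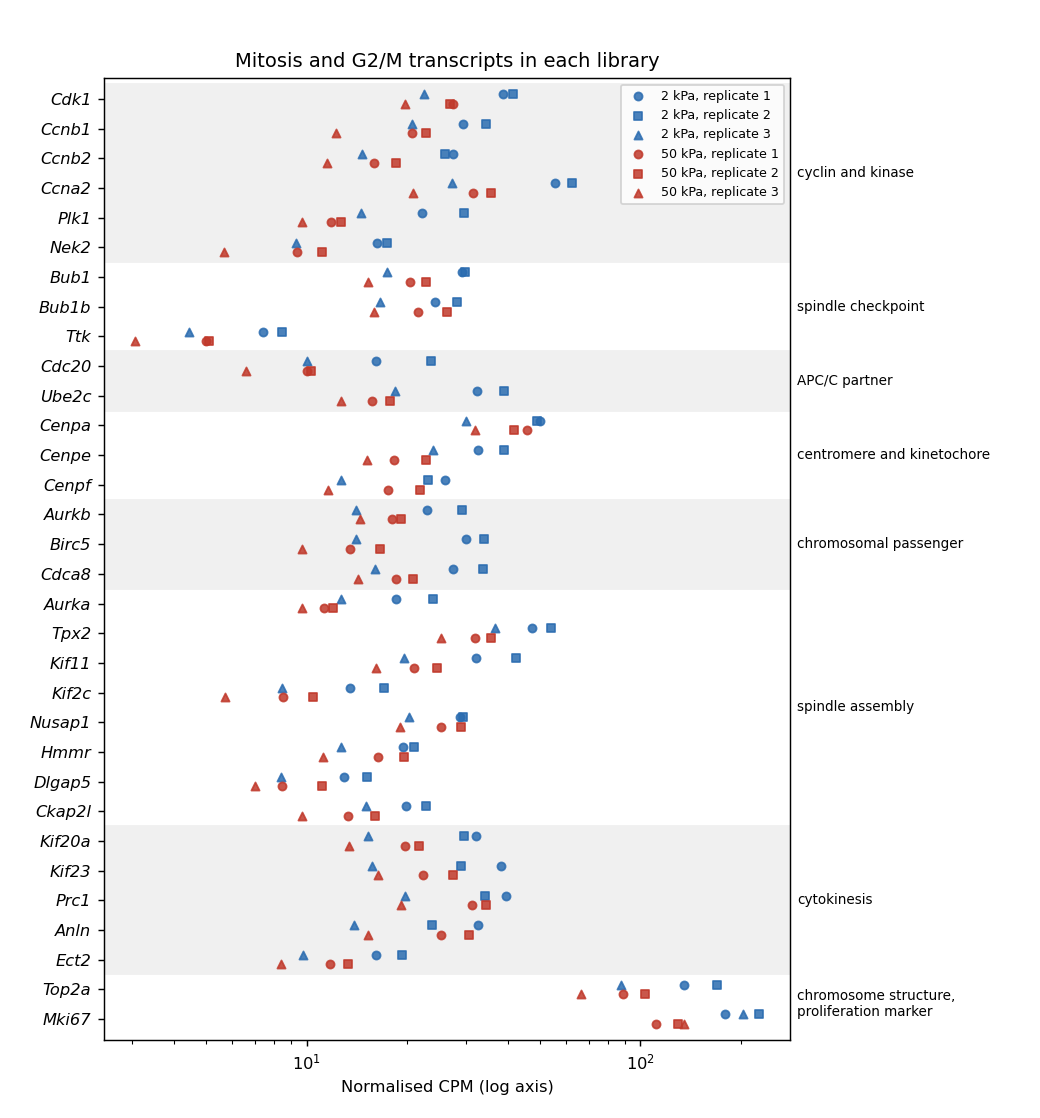
Level of each of the 32 mitosis and G2/M genes in each library, as normalised CPM on a log axis, with genes ordered by role, blue for 2 kPa, red for 50 kPa and a symbol for each replicate number. The triangles, replicate 3, are the lowest of their group for 31 of 32 genes. For 27 genes 2 kPa replicates 1 and 2 lie above all 50 kPa libraries, a number without a counted share over all genes.

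Summed over the 32 genes, the level was 1155, 1307 and 784.6 CPM in 2 kPa replicates 1 to 3 and 768.2, 871.9 and 608.6 CPM in 50 kPa replicates 1 to 3. The means were 1082 ± 269 and 749.6 ± 133 CPM (SD, n = 3), and the groups overlapped through 2 kPa replicate 3. That library lay within or below the 50 kPa range for 26 of the 32 genes, and below both 50 kPa replicates 1 and 2 for 22. Replicates 1 and 2 at 2 kPa were both above every 50 kPa library for 27 genes. Shares over all genes were not counted for the 26, 22 and 27, so these numbers only describe the 32 genes. The groups did not overlap for 6 genes, all lower at 50 kPa, beside 16.9% of all genes tested. These were Mki67, Plk1, Cenpe, Ube2c, Aurka and Tpx2. Without 2 kPa replicate 3 all 32 genes had a negative fold change, 24 were lower at an unadjusted edgeR p under 0.05 (beside 17.5% of all genes in that fit) and the median stood at -0.73. EdgeR called 0 of them there, with 3 calls among all genes. Without 2 kPa replicate 2 the median was -0.38, and 5 genes were lower at an unadjusted p under 0.05, beside 10.9% of all genes. Without 50 kPa replicate 3 it was -0.38, with 26 genes negative and 4 lower at an unadjusted p under 0.05, beside 16.1% of all genes, again with 0 calls among them.

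The promoters of several of these genes are shown with the places of 2 short elements. The cell cycle genes homology region, or CHR, is the element that MuvB complexes bind, and the CCAAT box is the site of the factor NF-Y. Promoter windows from 250 bases before to 50 bases after the start were taken from RefSeq on GRCm38.p6, and 27 of the 32 genes had one, 29 windows in all. For the CHR the letters searched were TTTGAA and the variants spelled TTTAAA or else TTCGAA. For the NF-Y site they were CCAAT. Both strands were read, and no matches overlap in the stretches shown. Each sequence below runs 5′ to 3′ along the gene from 200 bases before the start to 20 bases after it, with matches in capitals. They are the 3 genes with the smallest p and a window, plus cyclin B1 and Cdc20, which directs the destruction of cyclin B1.
Mki67, chr7:135716360-135716579, minus strand: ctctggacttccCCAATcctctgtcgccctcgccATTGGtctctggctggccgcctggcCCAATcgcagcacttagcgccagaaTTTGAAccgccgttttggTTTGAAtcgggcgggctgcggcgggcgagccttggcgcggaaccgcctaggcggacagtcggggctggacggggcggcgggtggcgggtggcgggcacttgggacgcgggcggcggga
Plk1, chr7:122159235-122159454, plus strand: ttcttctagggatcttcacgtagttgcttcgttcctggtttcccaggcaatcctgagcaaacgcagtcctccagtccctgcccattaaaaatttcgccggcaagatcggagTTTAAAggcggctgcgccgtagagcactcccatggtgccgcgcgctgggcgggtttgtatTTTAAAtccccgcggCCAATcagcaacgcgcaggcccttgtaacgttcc
Cenpe, chr3:135212363-135212582, plus strand: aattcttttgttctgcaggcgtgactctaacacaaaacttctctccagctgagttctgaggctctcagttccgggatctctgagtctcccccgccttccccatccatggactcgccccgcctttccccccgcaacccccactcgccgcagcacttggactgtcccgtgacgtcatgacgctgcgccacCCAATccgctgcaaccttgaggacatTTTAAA
Ccnb1, chr13:100786467-100786686, minus strand: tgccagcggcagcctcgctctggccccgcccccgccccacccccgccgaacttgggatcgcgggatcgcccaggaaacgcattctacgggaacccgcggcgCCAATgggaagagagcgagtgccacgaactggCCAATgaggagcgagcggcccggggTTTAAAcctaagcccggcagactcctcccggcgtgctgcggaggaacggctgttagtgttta
Cdc20, chr4:118437324-118437543, minus strand: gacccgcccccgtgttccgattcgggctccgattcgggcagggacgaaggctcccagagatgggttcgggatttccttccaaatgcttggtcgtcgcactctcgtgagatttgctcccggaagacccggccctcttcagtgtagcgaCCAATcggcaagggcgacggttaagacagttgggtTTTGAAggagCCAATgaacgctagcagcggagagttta
In Mki67 both CHR forms, starting at -116 and -98 from the start, follow 3 CCAAT matches. In Ccnb1 the CCAAT boxes start at -99 and -67 and the CHR form at -42. In Cdc20 the CHR form at -18 lies between CCAAT boxes at -53 and -8. Plk1 holds CHR forms at -89 and -29, a CCAAT box at -14 and a further TTTGAA at 31, outside the stretch shown. Cenpe has a CCAAT box at -12 and a CHR form at 15.

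A CHR form was found in 27 of the 29 windows (93.1%), against 28.8% of all 32851 windows and 31.7% of 41 windows of DNA replication genes. A CCAAT box was found in 25 (86.2%), against 37.4% of all windows and 61.0% of the replication windows. Both stood together in 24 windows (82.8%), against 11.3% and 24.4%. Nek2 and Nusap1 held no CHR form, and Anln, Birc5, Kif2c and Nusap1 no CCAAT box in these windows. A match is a run of letters and not a measured binding site. Of the genes lacking an element, Nusap1 and Anln had log2 fold changes of -0.10 and 0.02. Birc5 (-0.97), Nek2 (-0.72) and Kif2c (-0.66), which also lack one, were more negative than the median of the 32 genes (-0.57). Cenpa, Bub1b, Prc1 and Hmmr, which hold both elements, stood between -0.11 and -0.17. No relation between the elements and the fold changes was tested.

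Among the 6 cyclins and kinases of mitotic entry edgeR called 0, with 1 lower when the p was left unadjusted, and DESeq2 called Plk1 alone. Over all genes 14.8% were lower with the p unadjusted and 9.51% by DESeq2, so these counts are near those shares. The 6 genes had a median log2 fold change of -0.66. Plk1, the polo-like kinase of centrosome maturation and mitotic entry, was 22.2, 29.7 and 14.5 CPM in 2 kPa replicates 1 to 3 and 11.9, 12.7 and 9.72 CPM in 50 kPa replicates 1 to 3. Every 50 kPa library was below every 2 kPa library, and the log2 fold change was -0.96 ± 0.27 (edgeR adjusted p = 0.0922). Ccna2, cyclin A2 of S and G2 phase and the most abundant of this set, was 55.7, 62.4 and 27.2 CPM at 2 kPa and 31.6, 35.6 and 20.9 CPM at 50 kPa. Here 2 kPa replicate 3 fell among the 50 kPa libraries, and the log2 fold change of -0.72 ± 0.34 missed the threshold (edgeR adjusted p = 0.227). Ccnb1, cyclin B1, the partner of Cdk1 at mitotic entry, was 29.5, 34.5 and 20.7 CPM against 20.6, 22.9 and 12.3 CPM. Its log2 fold change was -0.60 ± 0.28 (edgeR adjusted p = 0.223), with the groups overlapping by 1 library. Cdk1, the kinase itself, was 38.7, 41.4 and 22.6 CPM at 2 kPa and 27.5, 26.9 and 19.7 CPM at 50 kPa (-0.47 ± 0.26). Ccnb2, cyclin B2, stood at -0.57 ± 0.29. Nek2, the kinase that separates centrosomes, was 16.2, 17.4 and 9.31 CPM against 9.36, 11.1 and 5.64 CPM (-0.72 ± 0.33, edgeR adjusted p = 0.213).

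Both partners of the anaphase-promoting complex, an enzyme and an activator, stood nearly 1 log2 unit lower at 50 kPa, and neither was called by edgeR. Both were lower when its p was left unadjusted (beside 14.8% of all genes), and DESeq2 called Ube2c (beside 9.51% of all genes lower). Ube2c, the ubiquitin-conjugating enzyme that starts chains on its substrates, was 32.5, 39.2 and 18.4 CPM at 2 kPa and 15.7, 17.7 and 12.7 CPM at 50 kPa. The groups did not overlap, by a margin of less than 1 CPM between 2 kPa replicate 3 and 50 kPa replicate 2, and the log2 fold change was -0.96 ± 0.29 (edgeR adjusted p = 0.104). Cdc20, the activator that the spindle checkpoint holds back, was 16.2, 23.5 and 10.03 CPM against 10.02, 10.3 and 6.60 CPM. Its 2 kPa replicate 3 lay level with 50 kPa replicates 1 and 2, and the log2 fold change was -0.89 ± 0.34 (edgeR adjusted p = 0.155).

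None of the 3 kinases of the spindle checkpoint was called by edgeR or DESeq2, and 0 had an unadjusted edgeR p under 0.05. Over all genes 14.8% were lower at that threshold and 9.51% by DESeq2, so these counts are near those shares. Bub1, which recruits checkpoint proteins to kinetochores, was 29.2, 29.9 and 17.4 CPM at 2 kPa and 20.4, 22.8 and 15.3 CPM at 50 kPa (-0.39 ± 0.25, edgeR adjusted p = 0.345). Bub1b, the BubR1 subunit of the checkpoint complex, differed by less than its error (-0.12 ± 0.26), and was positive in 2 of the 17 fits, up to 0.06 without 50 kPa replicate 3. Ttk, the Mps1 kinase at the head of the checkpoint, had the fewest counts of all 32 genes and stood at -0.62 ± 0.31, from 4.45 to 8.42 CPM at 2 kPa and 3.07 to 5.11 CPM at 50 kPa.

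Among centromere and kinetochore genes Cenpe and Cenpa differed in their values although all 3 genes missed edgeR's threshold. Cenpe, the kinesin that carries chromosomes to the spindle equator, was 32.6, 39.1 and 23.9 CPM in 2 kPa replicates 1 to 3 and 18.3, 22.8 and 15.2 CPM in 50 kPa replicates 1 to 3. The groups did not overlap, and the log2 fold change was -0.76 ± 0.23 (edgeR adjusted p = 0.102). Cenpa, the histone H3 variant that marks centromeres, was 50.0, 49.2 and 30.04 CPM against 45.7, 41.9 and 32.1 CPM. The 50 kPa values lay inside the 2 kPa range (-0.11 ± 0.23, edgeR adjusted p = 0.769), and its sign turned to 0.01 without 2 kPa replicate 1 and to 0.03 without 50 kPa replicate 3. Cenpf, a large kinetochore protein of G2 and mitosis, stood at -0.28 ± 0.33. The difference between Cenpe and Cenpa was not tested.

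The chromosomal passenger complex corrects wrong attachments and later acts in cytokinesis. None of its 3 genes was called by edgeR or DESeq2. At an unadjusted p under 0.05 edgeR gave 1 of them, lower, beside 14.8% of all genes. Birc5, survivin, had the most negative log2 fold change of all 32 genes (-0.97 ± 0.36, edgeR adjusted p = 0.149). It was 30.02, 33.9 and 14.1 CPM at 2 kPa and 13.5, 16.6 and 9.72 CPM at 50 kPa, so that 2 kPa replicate 3 lay inside the 50 kPa range. Cdca8, borealin, was 27.5, 33.7 and 16.01 CPM against 18.5, 20.9 and 14.3 CPM (-0.53 ± 0.29, edgeR adjusted p = 0.278). Aurkb, the kinase of the complex, stood at -0.36 ± 0.27, with 2 kPa replicate 3 the lowest of the 6 libraries at 14.1 CPM.

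Genes of spindle assembly had a median log2 fold change of -0.57 over 8 genes. EdgeR called 0 of them, with 3 lower when the p was left unadjusted (beside 14.8% of all genes), and DESeq2 called Aurka (beside 9.51% of all genes lower). Aurka, the Aurora kinase of spindle poles, was 18.5, 24.0 and 12.7 CPM at 2 kPa and 11.3, 11.97 and 9.66 CPM at 50 kPa (-0.74 ± 0.24, edgeR adjusted p = 0.117). Tpx2, which activates Aurora A on spindle microtubules, was 47.2, 53.9 and 36.6 CPM against 31.9, 35.6 and 25.2 CPM (-0.57 ± 0.19, edgeR adjusted p = 0.121). For both genes every 50 kPa library was below every 2 kPa library. Ckap2l, a spindle protein, stood at -0.56 ± 0.23 (edgeR adjusted p = 0.178). Kif11, the kinesin that pushes spindle poles apart, and Kif2c, a microtubule depolymerase of centromeres, stood at -0.61 ± 0.30 and -0.66 ± 0.32, and Dlgap5, a protein of spindle microtubules, at -0.46 ± 0.27. A pair of microtubule-binding proteins of this set were close to 0, Nusap1 at -0.10 ± 0.21 and Hmmr at -0.17 ± 0.27, and both turned positive, to 0.06 and 0.03, without 50 kPa replicate 3.

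Genes of cytokinesis had a median log2 fold change of -0.33, while the 3 centromere and kinetochore genes had one of -0.28. Of the 5 genes 0 had an unadjusted edgeR p under 0.05 and 0 were called by DESeq2. Among all genes 14.8% were lower at that threshold and 9.51% by DESeq2, so these counts are near those shares. Anln, anillin, the scaffold of the contractile ring, was 32.6, 23.7 and 13.9 CPM at 2 kPa and 25.3, 30.7 and 15.3 CPM at 50 kPa. It was the single gene of the 32 with a positive log2 fold change (0.02 ± 0.37), with an SE far above its size. Its sign was negative in 5 of the 17 fits run: with total-count scaling, without 2 kPa replicate 3, without 50 kPa replicate 1 or 2 and with these summed. Left-out libraries moved it from -0.24 (2 kPa replicate 3) to 0.34 (2 kPa replicate 1). Prc1, which bundles the microtubules of the midzone, was 39.6, 34.3 and 19.8 CPM against 31.4, 34.4 and 19.2 CPM (-0.14 ± 0.32, edgeR adjusted p = 0.788). Its sign turned to 0.07 without 2 kPa replicate 1 and to 0.08 without 50 kPa replicate 3. Kif23 and Kif20a, kinesins of the midzone, stood at -0.33 ± 0.35 and -0.49 ± 0.32, and Ect2, which activates RhoA at the cleavage site, at -0.43 ± 0.29. For these 5 genes 2 kPa replicate 3 lay within the 50 kPa range or below it.

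**Figure D2:**
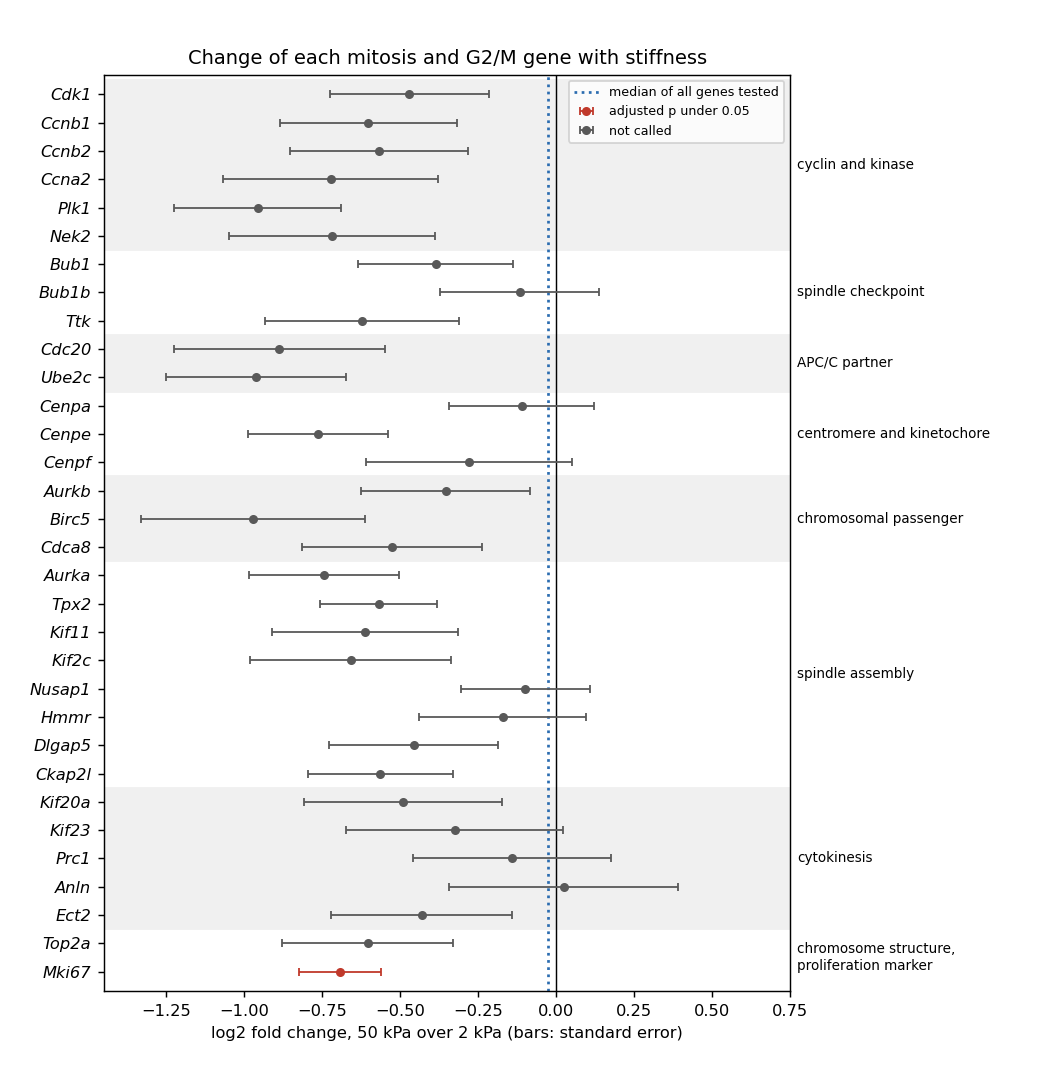
Log2 fold change of each gene, 50 kPa over 2 kPa, with its standard error as a bar, in red where the edgeR adjusted p was under 0.05, and the median of all genes tested as a dotted line. Mki67 at -0.69 is the only red point, Birc5 at -0.97 lies furthest left, and Anln at 0.02 is the only point right of 0.

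The 2 most abundant of the 32 genes, Mki67 and Top2a, had similar fold changes and different precision. Mki67 was 179.6, 227 and 202.5 CPM in 2 kPa replicates 1 to 3 and 111.7, 129.8 and 135 CPM in 50 kPa replicates 1 to 3. The lowest 2 kPa library was above the highest 50 kPa library, and the log2 fold change was -0.69 ± 0.13 (edgeR adjusted p = 0.0486). Top2a, topoisomerase II alpha, which untangles sister chromatids, was 135.5, 169.7 and 87.3 CPM against 88.4, 103 and 66.6 CPM. Its log2 fold change was -0.61 ± 0.27 (edgeR adjusted p = 0.208), and 2 kPa replicate 3 lay below 50 kPa replicates 1 and 2. The call of Mki67 was lost without 2 kPa replicate 2 or 3 or any 1 of the 50 kPa libraries (edgeR adjusted p = 0.0647 to 0.224), where its log2 fold change lay between -0.60 and -0.74. It was also lost with 50 kPa replicates 1 and 2 summed (edgeR adjusted p = 0.197), and with upper-quartile or total-count scaling, no filter, the filter of 5 CPM in 3 libraries or robust quasi-likelihood (0.0503 to 0.066).

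Replicate 3 of both groups had low levels of mitotic transcripts other than Mki67. For 31 of the 32 genes replicate 3 was the lowest library of the 2 kPa group and also of the 50 kPa group, beside 24.4% of all genes tested. It was so for 129 of the 190 genes in 10 other cell cycle lists, and for 35 of 43 genes of DNA replication among them. Mki67 was the exception, with replicate 1 lowest in both groups. As a share of the summed CPM of the 32 genes it took 15.5%, 17.4% and 25.8% at 2 kPa and 14.5%, 14.9% and 22.2% at 50 kPa. The ratio of Mki67 to Top2a was 1.33, 1.34 and 2.32 at 2 kPa and 1.26, 1.26 and 2.03 at 50 kPa. Replicate 3 was thus high in this ratio at both stiffnesses, and the group means of 1.66 ± 0.571 and 1.52 ± 0.442 differed by less than the SD. Set against the mean of the other 31 genes on the log2 scale, Mki67 departed by 0.66 in 2 kPa replicate 3, the largest departure of any of the 32 genes in any library, followed by Anln in 2 kPa replicate 2 (-0.52). Ect2 followed the others most closely, within 0.09 in every library. The labels do not say what a replicate number marks.

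**Figure D3:**
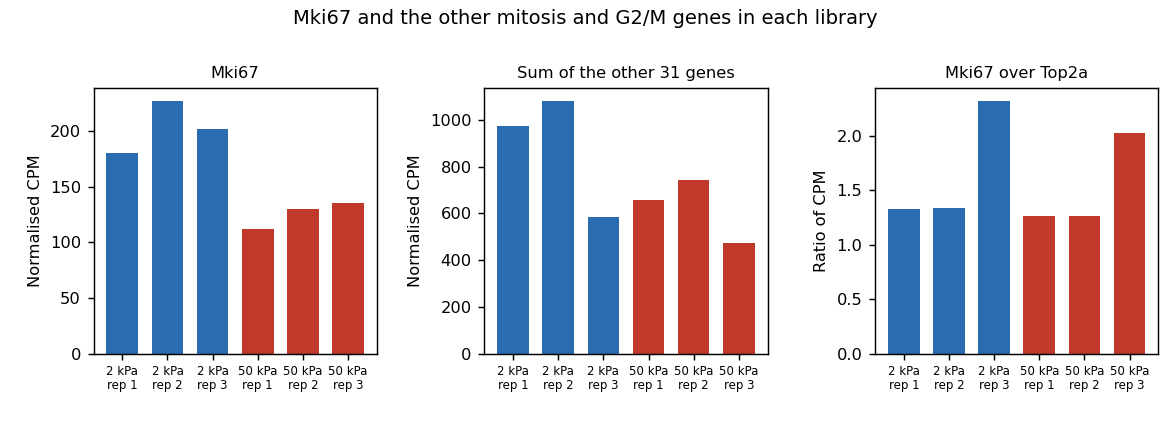
Normalised CPM of Mki67 (left), the summed CPM of the other 31 genes (middle) and the ratio of Mki67 to Top2a (right) in each library, blue for 2 kPa and red for 50 kPa. Replicate 3 is the lowest bar of each group in the middle panel, 582.1 and 473.6 CPM, and the highest of each group in the right panel, 2.32 and 2.03.

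Per length of exon the order of the genes differed from the order in CPM. With CPM divided by the kilobases of all GENCODE exons of a gene (RPKM), Mki67 was highest in both groups, at 20.2 ± 2.36 at 2 kPa and 12.5 ± 1.21 at 50 kPa. Ccnb2 came next, at 14.9 ± 4.59 and 10.02 ± 2.33 RPKM, and then Top2a, at 14.5 ± 4.59 and 9.54 ± 2.03 RPKM, which differed from Ccnb2 by less than the SD. Cenpf and Ttk were lowest, at 1.33 ± 0.452 and 1.37 ± 0.420 RPKM at 2 kPa and 1.10 ± 0.331 and 0.893 ± 0.234 RPKM at 50 kPa. Lengths include exons of minor transcripts, which lowers the value of a gene with long rare exons. Mki67 lies at chromosome 7, 135689784 to 135716361, Top2a at chromosome 11, 98992943 to 99024189, and Plk1 at chromosome 7, 122159439 to 122169873 (GRCm38, GENCODE M21). Of the 32 genes 10 share exon bases with a gene on the opposite strand, and 4 share over 10%: Kif20a with Cdc23 (29.3%), Ube2c with Tnnc2 (22.8%), Ccna2 with Exosc9 (12.5%) and Prc1 with Rccd1 (11.1%). Without a stated strand setting, reads from the partner genes cannot be told apart in these 4. Mki67 shares none.

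Of 190 further genes in 10 cell cycle lists, none of them among the 32, 1 fell at 50 kPa and 0 rose by edgeR, with 49 lower and 5 higher at an unadjusted p under 0.05. DESeq2 called 28 lower and 4 higher. Among all genes 14.8% were lower at the unadjusted threshold, and DESeq2 called 9.51% lower. Of the 13155 genes tested 1716 were higher at that threshold, and DESeq2 called 1121 higher. The gene that fell was Tyms, thymidylate synthase, at 18.5, 26.0 and 18.6 CPM in 2 kPa replicates 1 to 3 and 11.3, 11.2 and 11.05 CPM in 50 kPa replicates 1 to 3. The Tyms log2 fold change was -0.91 ± 0.16 (edgeR adjusted p = 0.0444). The call was lost without any 1 library other than 2 kPa replicate 1 (0.0554 to 0.196), with the summed replicates (0.187), with upper-quartile or total-count scaling or the 5 CPM filter (0.0525 to 0.0634), and with limma-voom (0.0501). It belongs to the DNA replication and G1/S list, whose 43 genes had a median of -0.46 with 41 negative. Mcm10, which helps to activate the replicative helicase, stood at -0.94 ± 0.21 (edgeR adjusted p = 0.0632). Median log2 fold changes were -0.54 for 26 other mitotic kinesins and cytokinesis genes, -0.45 for 22 outer kinetochore and checkpoint genes and -0.37 both for 17 genes of the centromere network and for 13 regulators of G2/M entry. They were -0.28 for 16 genes of cohesin and its release, -0.13 for 8 condensin genes, -0.12 for 18 subunits and partners of the anaphase-promoting complex, -0.10 for 13 genes of DREAM, MuvB and FOXM1, and -0.05 for 14 CDK inhibitors and G1 cyclins. Each of these 10 medians was below that of all genes tested.

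The other genes with the smallest p of each list, none of them called by edgeR, were as follows. Lmnb1, the lamin of the nuclear envelope, was 53.0, 78.8 and 39.5 CPM at 2 kPa and 23.4, 26.9 and 25.2 CPM at 50 kPa (-1.18 ± 0.25, edgeR adjusted p = 0.0576). Ube2s, which extends the ubiquitin chains that Ube2c starts, was 99.5, 114.5 and 91.6 CPM against 73.8, 71.1 and 68.3 CPM (-0.52 ± 0.11, edgeR adjusted p = 0.0557). For both genes all 50 kPa libraries were below all 2 kPa libraries. Mybl2, which encodes B-MYB, stood at -1.38 ± 0.41 and Rbl1, the p107 pocket protein, at -0.64 ± 0.18 (edgeR adjusted p = 0.102 and 0.0883). Of kinetochore genes Zw10 stood at -0.40 ± 0.10, Pmf1 at -0.70 ± 0.18, Cenpt at -0.66 ± 0.14 and Cenpp at -0.84 ± 0.28. Of chromosome structure genes Rad21, a cohesin subunit, stood at -0.38 ± 0.09, its partner Stag1 at -0.40 ± 0.11, and the condensin genes Ncapg and Smc2 at -0.73 ± 0.27 and -0.63 ± 0.27. Arpp19, an inhibitor of the phosphatase PP2A in mitosis, stood at -0.28 ± 0.08, Anapc16 at -0.42 ± 0.15 and the centriole gene Cenpj at -0.72 ± 0.20. Ckap5, a microtubule polymerase, went the other way (0.39 ± 0.11, edgeR adjusted p = 0.0995). The CDK inhibitor genes Cdkn2a and Cdkn2d, which restrain the entry into S phase, stood at -1.13 ± 0.23 and -0.47 ± 0.10 (edgeR adjusted p = 0.0553 and 0.058). Among the genes of this paragraph the edgeR adjusted p-values lay between 0.0553 and 0.195.

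**Figure D4:**
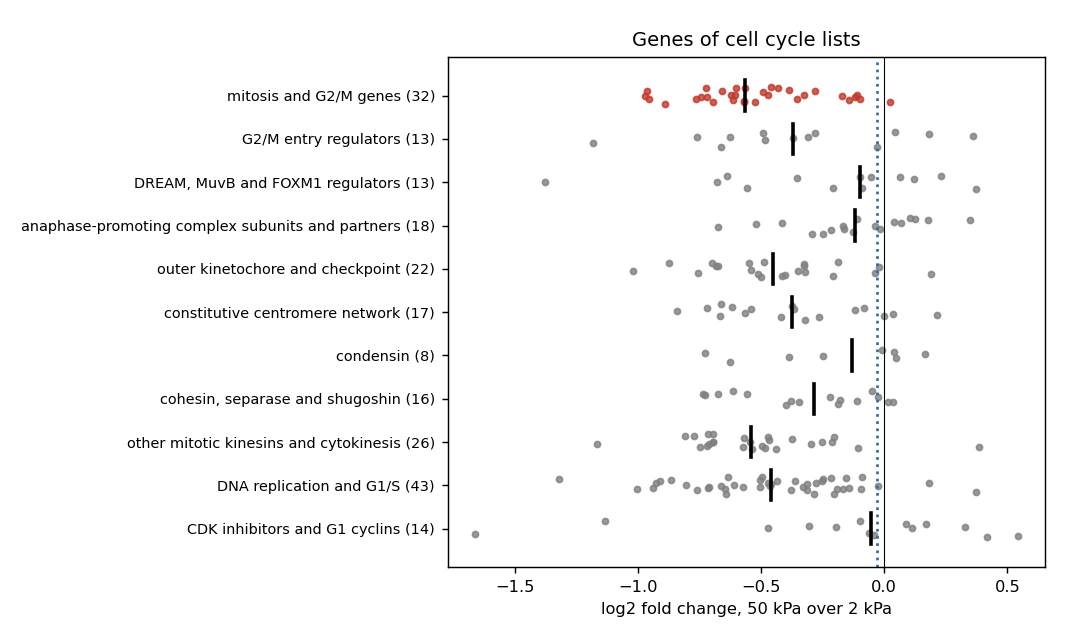
Log2 fold change, 50 kPa over 2 kPa, of each gene of the 32 (red) and of 10 other cell cycle lists (grey), with the number of genes in brackets, the median of each as a black line and the median of all genes tested as a dotted line. The 32 genes have a median of -0.57 and the 26 other mitotic kinesins and cytokinesis genes one of -0.54, while CDK inhibitors and G1 cyclins stand at -0.05.

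Markers of several cell types differed between the same libraries, and their part in the values of the mitotic genes was not tested. Among all genes edgeR called 1.98% lower and 1.47% higher, 14.8% were lower with the p left unadjusted, and DESeq2 called 9.51% lower. With the p left unadjusted 1716 of the 13155 genes were higher, and DESeq2 called 1121 higher. Of 11 listed promyelocyte markers edgeR called 0, with 9 lower when the p was left unadjusted, and DESeq2 called 9 lower (median -2.54). Their summed level was 718.4 to 1523 CPM at 2 kPa and 832.3 to 910.5 CPM at 50 kPa. Srgn, which many blood cells express, was the most abundant of them, with means of 589.4 CPM at 2 kPa and 706 CPM at 50 kPa. Igsf6 came next, at 167.1 and 121.7 CPM, so these 2 genes weigh heavily in the sums. Their log2 fold changes were 0.26 ± 0.16 and -0.46 ± 0.37. Prtn3, a granule protease of promyelocytes chosen here after its values were seen, was 23.8, 178.3 and 37.4 CPM at 2 kPa and 3.20, 3.94 and 12.5 CPM at 50 kPa, highest in 2 kPa replicate 2. That library also had the highest level for 25 of the 32 mitotic genes, and the share over all genes was not counted. Sums of neutrophil, B cell and plasma cell, megakaryocyte, and basophil and mast cell markers were highest there too. Those of macrophage and dendritic cell markers were lowest there. Prtn3 had the most negative log2 fold change of the 11 markers (-3.60). Igsf6 was instead highest in 2 kPa replicate 3 and Srgn in 50 kPa replicate 1. Replicate 3 was the lowest library in both groups for 0 of these 11 markers and for 31 of the 32 mitotic genes. Progenitor markers gave 0 of 9 calls by edgeR, 4 lower with the p left unadjusted and 4 lower by DESeq2 (median -1.37). Their sums were 133.5 to 207.1 against 131.5 to 168.1 CPM. Kit, the most abundant of them, weighs heavily in these sums, with means of 76.3 CPM at 2 kPa and 105.4 CPM at 50 kPa. Its log2 fold change was positive (0.47 ± 0.31, edgeR adjusted p = 0.358), and that of Gata2, next in abundance, was -1.65 ± 0.58. Neutrophil markers fell in 7 of 13 genes (sums 5600 to 9236 against 3977 to 4301 CPM), B cell and plasma cell markers in 8 of 9 (889.4 to 1436 against 25.6 to 108.8 CPM) and megakaryocyte markers in 5 of 9 (228.6 to 391.9 against 77.4 to 244.6 CPM). DESeq2 called 10, 8 and 7 of them lower, and 11, 9 and 7 were lower with the p left unadjusted. Chil3, the most abundant neutrophil marker, went the other way, at 1709, 1777 and 1932 CPM at 2 kPa and 3391, 3088 and 2272 CPM at 50 kPa. Its log2 fold change was 0.69 ± 0.20 (edgeR adjusted p = 0.102), and DESeq2 called it higher. In the megakaryocyte sums Pf4 gave 204.1 of the 244.6 CPM in 50 kPa replicate 3. Over all 12 marker lists edgeR called 23 genes lower, which became 5 with the 5 CPM filter and 0 with 50 kPa replicates 1 and 2 summed. It was also 0 without 2 kPa replicate 2 or 3 or without 50 kPa replicate 1 or 2. Basophil and mast cell markers fell in 1 of 9 and monocyte markers in 2 of 8 genes, and by DESeq2 6 and 3 of them were lower. The monocyte marker F13a1 went the other way (0.86 ± 0.22, edgeR adjusted p = 0.0817) and was called higher by DESeq2. Of 7 stromal markers 6 had negative log2 fold changes (median -2.25), 5 of them lower with the p left unadjusted and 4 by DESeq2, and edgeR called none of these 6. Lepr alone rose, at 59.0, 69.5 and 42.8 CPM against 118.7, 114.7 and 110.7 CPM. The Lepr log2 fold change was 1.006 ± 0.18 (edgeR adjusted p = 0.0452), and the call was lost when any 1 library was left out, with upper-quartile or total-count scaling, with the 5 CPM filter and with the summed replicates (0.0536 to 0.194). Macrophage markers gave 0 of 12 calls by edgeR, 6 higher with the p left unadjusted and 5 higher by DESeq2, and summed to 2833 to 5422 CPM at 2 kPa and 6501 to 7680 CPM at 50 kPa. Of 12 erythroid markers only Tfrc and Epor passed the filter, and Hba-a1, Hba-a2, Hbb-bt, Hbb-bs and Alas2 had 0 counts in every library. T and NK cell markers summed to 6.37 to 7.9 CPM at 2 kPa and 5.35 to 7.82 CPM at 50 kPa.

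**Figure D5:**
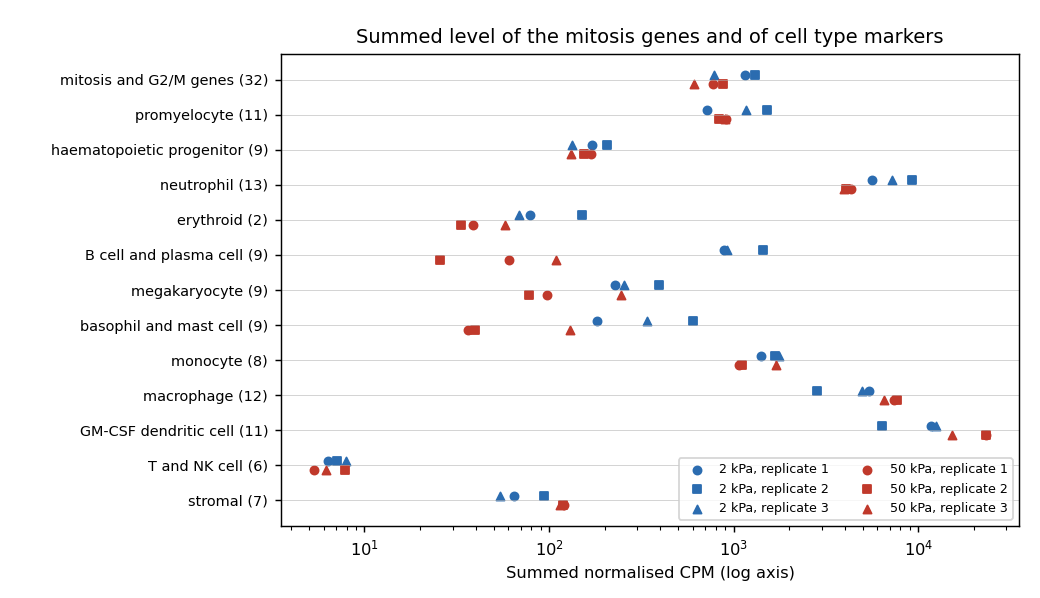
Summed normalised CPM, on a log axis, of the 32 mitosis and G2/M genes and of the tested genes of 12 marker lists in each library, blue for 2 kPa and red for 50 kPa, with a symbol for each replicate number. The mitotic sums run from 608.6 to 1307 CPM and overlap between the groups, while those of the 9 B cell and plasma cell markers, 25.6 to 108.8 CPM at 50 kPa and 889.4 to 1436 CPM at 2 kPa, do not.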

How the data were processed

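PolyA RNA was sequenced in 3 libraries from 2 kPa and 3 from 50 kPa, with a directional library kit per the labels' protocols. The authors deposited whole-number read counts per gene symbol, 1 table a library. The tools listed, per the submitters' processing notes, are TopHat2 2.0.11 and HTSeq 0.6.1p2 beside FastQC 0.11.2 and edgeR (3.16.5 and 3.8.6), without role or order. The genome builds listed there are mm10, of mouse, and hg19, of human. The sources used here state neither a gene annotation nor how strand was treated.

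Libraries were grouped by title. In R 4.3.3, genes were filtered with edgeR 4.0.16 (filterByExpr, minimum count 10, minimum total 15), scaled with TMM factors and tested with glmQLFit and glmQLFTest on stiffness, with Benjamini-Hochberg adjustment over 13155 genes. A standard error is the log2 fold change divided by the square root of F. The common biological coefficient of variation was 24.6%. DESeq2 1.42.0, limma-voom (limma 3.58.1), other scalings and filters, a replicate term and leaving out libraries were alternatives. The procedure was tested on simulated data.

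The 32 genes, the lists and the alternatives were chosen with earlier results of these data known. Statistics are given for those of the 32 genes past the threshold, the 12 with the smallest p and the most abundant of each role. Of each cell cycle list they are given for the 2 smallest p-values. Of the markers, single values are given for Cd74, H2-Aa, Zbtb46, Itgax, Srgn, Igsf6, Prtn3, Kit, Gata2, Chil3, Pf4, F13a1 and Lepr. The others appear in counts and sums. Exon lengths and coordinates are from GENCODE M21 on GRCm38, matched by symbol for all 32 genes. Promoter sequences are from RefSeq on GRCm38.p6. Plots were drawn with Python 3.11.15 and matplotlib 3.10.9.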

Additional observations from a re-analysis of the deposited data

How the results depend on the processing

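The median log2 fold change of the 32 genes was -0.57. Under the 16 alternatives it ran from -0.73 when low tension replicate 3 was left out to -0.38 when low tension replicate 2 was. These shifts were below 0.403, the pooled within-group SD of the mean log2 level of the 32 genes per library. That SD is not one of a median fold change, so it does not show the median to be stable. The count of called genes moved. Of the 32, 0 were called with upper-quartile or total-count scaling, without a filter on low counts, with 5 CPM or more required in 3 libraries, with robust quasi-likelihood or with high tension replicates 1 and 2 summed, 5 with DESeq2, and 0 to 1 when a library was left out. Total counts moved the median of all genes from -0.03 to -0.16 and that of the 32 to -0.72. With the replicate block, 10 of the 32 were called lower (Birc5, Ccnb1, Cenpe, Ckap2l, Mki67, Nek2, Plk1, Top2a, Tpx2 and Ube2c), beside 522 lower genes in all (3.97%) and 7 in the cell cycle lists. The labels do not say that a number marks a shared animal or day. Across genes, deviations from the group means had r of 0.54, -0.11 and 0.49 between the libraries numbered 1, 2 and 3, and 3 of 6 libraries were closest to their own number. The fit without the block was therefore kept as the reported one.

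Among all genes, 260 lower and 194 higher became 16 and 20 with at least 5 CPM, 1251 and 1121 with DESeq2, 0 and 0 with high tension replicates 1 and 2 summed, 77 higher with total counts, and 0 to 256 lower and 0 to 255 higher when 1 library was left out. In the cell cycle lists, 1 lower and 0 higher became 0 lower with upper-quartile scaling, at least 5 CPM, limma-voom or the summed replicates, 28 lower and 4 higher with DESeq2, and 0 to 2 lower when 1 library was left out. In the marker lists, 23 lower and 1 higher became 5 lower and 0 higher with at least 5 CPM, 57 and 12 with DESeq2, and 0 and 0 with the summed replicates. There were 0 higher with upper-quartile or total-count scaling, and 0 to 28 lower and 0 to 1 higher when 1 library was left out. With total counts the 1 called gene of the cell cycle lists was Rbl1 (edgeR adjusted p = 0.0458), not Tyms. Ttk had too few counts for the 5 CPM filter. When 1 library was left out, Cenpa ranged from -0.314 to 0.032, positive without low tension replicate 1 (0.012) or high tension replicate 3, and Prc1 from -0.383 to 0.083, positive without the same libraries (0.069 and 0.083). Igsf6 ranged from -0.727 to 0.057, positive without low tension replicate 3. The Pf4 log2 fold change, at -0.128 with all libraries, ranged from -0.798 to 0.253, positive without low tension replicate 2 and also without high tension replicate 1 (0.087) or 2 (0.192), and was 0.139 with these summed. The cause of these changes was not tested.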
